A study of Mus musculus with 20 samples.

Results

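The organic anion transporting polypeptides are the membrane carriers encoded by the Slco genes. Of the 47069 genes in the count table, 15 have a symbol beginning with Slco, and 8 of these are described here, namely Slco1a1, Slco1a4, Slco1a6, Slco2a1, Slco2b1, Slco3a1, Slco4a1 and Slco4c1. They were taken by symbol, and the family was selected on the measured difference of Slco1a1 between Veh and WT, which was among the largest in this series. That contrast is therefore given as a description for all 8 genes, as are the comparisons of Slco1a1 with Veh or WT. No p-value is printed for these values. Counts of genes that passed the threshold in them are given beside the share of all genes. All 8 genes passed the filter on low counts, as did 17622 genes in all.

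RNA was sequenced from the kidneys of 20 male mice aged 15 weeks. All were F1 hybrids of 129SJ and C57Bl/6J mice. The WT group held 5 untreated mice. The other groups carried a constitutive loss of Col4a3 (Col4a3-/-), a mouse model of Alport syndrome in which the type IV collagen of the glomerular basement membrane is defective. From 5 weeks of age they received weekly PBS (Veh, 6 mice), the anti-miR-21 oligonucleotide lademirsen at 50 mg/kg under the skin once a week (Anti-miR-21, 6 mice), or the ACE inhibitor ramipril in drinking water at 11 mg/L (ACEi, 3 mice), which the library table gives as 4 mg/kg. The ACEi mice were also injected with PBS. The knockout is present in every cell, so no group separates kidney-specific loss from loss elsewhere, and no WT mouse was treated.

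Slco proteins carry bulky organic anions across the plasma membrane without using ATP. Their cargoes include conjugated steroids, bile salts, thyroid hormones, prostaglandins and many drugs. In the kidney they act beside the Slc22 carriers and the ATP-driven efflux pumps of the tubule. Carriers of the Slco1a branch are best known from liver and kidney epithelium, and renal Slco1a1 is known as a male-predominant, androgen-dependent gene of mice. Slco2a1 is the prostaglandin transporter, which takes up prostaglandins for breakdown inside the cell. Slco3a1, Slco4a1 and Slco4c1 are known to carry thyroid hormones, and Slco4c1 also carries cardiac glycosides and uraemic solutes.

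Slco1a4, Slco1a1, Slco1a6 and Slco1a5 lie in this order on the minus strand of chromosome 6 in GRCm38. Slco1a1 spans chr6:141907282-141946962 and Slco1a6 spans chr6:142085761-142208521. Over their coding sequences Slco1a1 was 86.7% identical to Slco1a4 and 84.2% identical to Slco1a6, against 59.8% for Slco3a1. The 250 bases before the RefSeq start of 3 genes are printed here because the chromosome 6 neighbours Slco1a1 and Slco1a6 were low together in the same mice, while Slco2a1 was high in those mice. Each runs 5′ to 3′ towards the start site, in GRCm38, and capitals mark the letters TATAAA on either strand.
Slco1a1, chr6:141946963-141947212, minus strand: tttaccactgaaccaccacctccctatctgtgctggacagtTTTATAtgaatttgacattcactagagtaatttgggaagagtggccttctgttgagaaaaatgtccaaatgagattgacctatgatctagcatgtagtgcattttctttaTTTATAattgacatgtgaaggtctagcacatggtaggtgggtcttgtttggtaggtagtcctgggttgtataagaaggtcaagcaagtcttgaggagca
Slco1a6, chr6:142186150-142186399, minus strand: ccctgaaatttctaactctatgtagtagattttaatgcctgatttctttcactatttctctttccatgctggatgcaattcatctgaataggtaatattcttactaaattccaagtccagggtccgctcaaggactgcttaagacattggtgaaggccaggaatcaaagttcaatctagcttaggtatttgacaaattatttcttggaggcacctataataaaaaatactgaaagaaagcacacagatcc
Slco2a1, chr9:103008237-103008486, plus strand: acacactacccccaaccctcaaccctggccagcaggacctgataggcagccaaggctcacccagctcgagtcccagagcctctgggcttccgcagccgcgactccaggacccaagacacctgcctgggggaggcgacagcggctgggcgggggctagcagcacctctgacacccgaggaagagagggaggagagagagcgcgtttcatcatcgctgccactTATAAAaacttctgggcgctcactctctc

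The RefSeq starts of Slco1a6 and Slco2a1 lie inside the longer gene spans of GENCODE, which begin farther upstream. TATAAA occurred at 2 places in Slco1a1, both on the strand opposite to the printed one, the nearer at position -99 from the start site. In Slco2a1 it lay on the printed strand at position -29, and the window of Slco1a6 held none. On either strand, 12.4% of 32817 promoter windows of this length held it. The longer motifs HNF1, DR1, the androgen receptor element and HNF4 (CAAAGTCCA) had no match on either strand in the windows of the 7 members with a RefSeq entry. They are held by 0.372%, 0.0335%, 0.0366% and 0.384% of all windows. Only the exact string of each motif was searched, so variants of these sites were not counted. The short hormone receptor motif TGTTCT, held by 16.1% of windows, occurred in Slco2b1 at position -96 and in Slco4c1 at position -230. Slco3a1 had no entry.

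Libraries were even in depth, with 28474301 to 29479629 counts on genes per mouse. Flow cell A held 3 WT, 4 Veh, 5 Anti-miR-21 and 1 ACEi mice, and flow cell B held 2, 2, 1 and 2. The targeted gene Col4a3 ranged from 194 to 238 CPM (counts scaled to library size with TMM factors) in WT and from 27.9 to 74.9 CPM in the 15 Col4a3-/- mice, with no overlap. The tissue is labelled kidney, although the extraction text names adipose tissue. Summed CPM of 10 proximal tubule markers was 2496 to 25351 in every mouse, and none of these markers was at 0, whereas 5 adipocyte markers summed to 0.525 to 410. The adipocyte sum was most variable in Veh, from 0.592 to 410, and its part in the results was not tested. Scaling by library totals alone in place of TMM moved the median log2 difference of all genes from 0.07 to 0.65 for Veh vs WT, from -0.04 to -0.38 for Anti-miR-21 vs Veh and from -0.05 to -0.32 for ACEi vs Veh. With it the share of called genes that were higher moved from 53.4% to 81.2%, from 48.6% to 19.96% and from 52.4% to 20.5%. Differences in CPM and in edgeR fits below are relative to the TMM scale unless another scaling is named. In whole kidney, fewer cells of a type and less RNA per cell cannot be told apart.

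Per length of transcript, Slco1a1 was the highest of the 8 genes in WT and ranked behind 5 of them in Veh, both by FPKM and by CPM per kilobase of exon. Its deposited FPKM (fragments scaled to transcript length and library size) averaged 123 ± 37.3 (SD, n = 5) in WT, ahead of Slco1a6 at 70.9 ± 4.18 and Slco3a1 at 66.4 ± 6.98. The last pair lay within their spread of each other. Slco4a1 (6.53 ± 2.66), Slco2b1 (4.94 ± 1.499) and Slco2a1 (2.57 ± 1.05) followed, and Slco1a4 (0.428 ± 0.182) and Slco4c1 (0.148 ± 0.178) were lowest. Neighbours among the 3 middle genes also lay within their spread. In Veh (n = 6), Slco3a1 led at 37.1 ± 2.06 FPKM, followed by Slco4a1 at 20.04 ± 2.29, Slco1a6 at 16.99 ± 7.49 and Slco2b1 at 13.3 ± 2.45. Slco2a1 was at 6.69 ± 2.29 and Slco1a1 at 3.99 ± 3.08. In both treated groups Slco1a6, Slco3a1 and Slco1a1 were the top 3 in this order by FPKM, whereas by CPM per kilobase Slco1a1 stood above Slco3a1. By FPKM, Slco3a1 and Slco1a1 lay within their spread of each other. They were at 44.8 ± 5.36 and 40.0 ± 16.2 in Anti-miR-21, and at 48.2 ± 1.87 and 48.1 ± 3.14 in ACEi.

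Summed over the 8 genes, the FPKM was 275 ± 44.5 in WT, 98.7 ± 11.7 in Veh, 162 ± 22.6 in Anti-miR-21 and 182 ± 0.257 in ACEi (n = 5, 6, 6 and 3). The deposited FPKM carries no TMM factors, so group differences in these sums and in the FPKM levels above are not on the TMM scale. Slco1a1 made up 43.8% of this sum in WT, 3.84% in Veh, 24.1% in Anti-miR-21 and 26.5% in ACEi. In Veh, Slco3a1 held 37.9% and Slco4a1 20.7%, against 24.4% and 2.37% in WT. Slco1a6 held 16.7% (SD 5.32) in Veh, within the spread of Slco4a1 (SD 4.21), and by CPM per kilobase it stood above Slco4a1, at 11.3 against 9.24. On that measure Slco3a1 was at 12.6 in Veh, within the spread of Slco1a6 (SD 5.16). The size of the lead and share of Slco3a1 thus depends on the measure. The larger share of Slco3a1 in Veh went with a lower level, 37.1 against 66.4 FPKM (107 against 274 CPM), in a smaller sum.

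**Figure D1:**
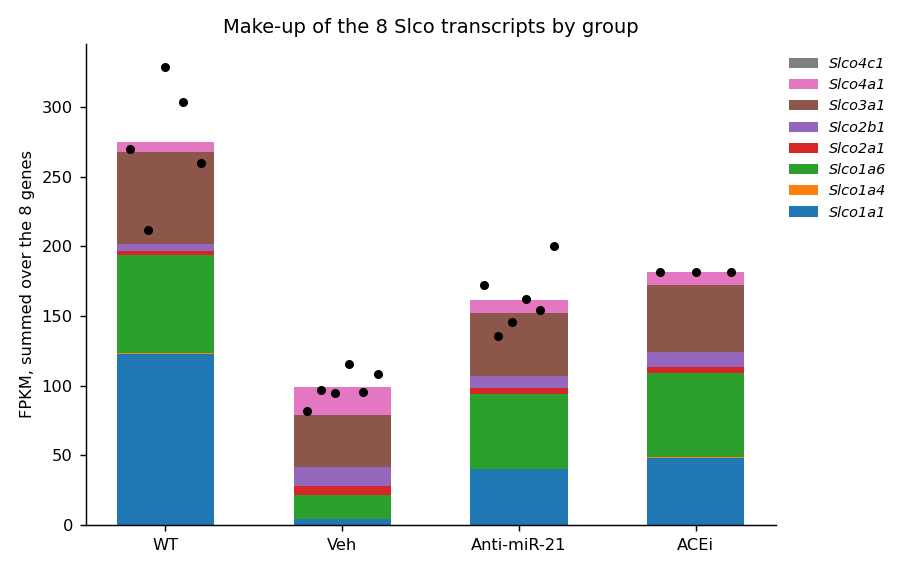
Mean deposited FPKM of the 8 Slco genes, stacked, for WT (n = 5), Veh (n = 6), Anti-miR-21 (n = 6) and ACEi (n = 3), with 1 black point per mouse for the sum over the 8 genes. The Slco1a1 layer is thick in WT and thin in Veh, and Slco1a4 and Slco4c1 are too low to see; all Veh sums lie between 81.7 and 116, below every other mouse.

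Slco1a1, the steroid conjugate and bile salt carrier of the brush border, was far lower in Veh than in WT kidneys, though still detected in every Veh mouse. Its level was 571, 323, 830, 651 and 588 CPM in WT mice 1 to 5, and 5.47, 11.0, 7.48, 35.1, 7.67 and 12.4 CPM in Veh mice 1 to 6. The groups did not overlap, and the Veh mean was 2.22% of the WT mean. The log2 fold change was -5.50 (SE 0.45), and -6.07 without Veh mouse 4, the highest of that group. In Anti-miR-21 mice 1 to 6 it was at 161, 86.0, 110, 185, 148 and 306 CPM. ACEi mice 1 to 3 held 172, 188 and 200 CPM. Every treated mouse lay above every Veh mouse and below every WT mouse. The group means were 28.01% of WT with Anti-miR-21 and 31.5% with ACEi. Against Veh the log2 fold changes were 3.66 (SE 0.41) and 3.83 (SE 0.44), and 4.26 and 4.43 without Veh mouse 4.

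Slco1a6, the renal neighbour of Slco1a1, followed the same order of groups at a smaller size. WT mice 1 to 5 held 277, 237, 254, 250 and 230 CPM. Veh mice 1 to 6 held 25.6, 36.8, 30.9, 79.6, 35.6 and 49.6 CPM, so that the Veh mean was 17.2% of WT (log2 fold change -2.54, SE 0.21). Veh mouse 4 was again the highest. Anti-miR-21 mice held 135, 145, 138, 181, 176 and 200 CPM, and ACEi mice 158, 186 and 166 CPM. Neither treated group overlapped Veh or WT. Slco1a6 rose in Anti-miR-21 against Veh by a log2 fold change of 1.92 (SE 0.20, edgeR adjusted p = 1.63e-07) and in ACEi against Veh by 1.98 (SE 0.23, edgeR adjusted p = 1.17e-05). Compared with WT, it remained lower in Anti-miR-21 (log2 fold change -0.62, SE 0.20, edgeR adjusted p = 0.0173). With ACEi the value was -0.55 (SE 0.25, edgeR adjusted p = 0.0712), and DESeq2 gave an adjusted p of 0.0454. Scaled by library totals alone, the Anti-miR-21 difference from WT was -0.39 with an edgeR adjusted p of 0.0718.

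Across the 20 mice, log2 CPM of Slco1a1 and Slco1a6 had a Pearson r of 0.98, and 0.85 after the group means were removed. These points share their groups and libraries. Both genes are known from the proximal tubule, and 10 proximal tubule markers summed to 22115 CPM in WT, 3896 in Veh (17.6% of WT), 14111 in Anti-miR-21 (63.8%) and 11891 in ACEi (53.8%). All 10 of these markers were called lower in Veh than in WT, where 34.0% of all genes were. Their log2 fold changes ran from -2.94 to -0.72 (median -2.17), so single markers differed widely and the sum is weighted to the most abundant. The share of WT left in Veh was thus 17.2% for Slco1a6, 17.6% for the marker sum and 2.22% for Slco1a1. The part of proximal tubule content in these values was not tested.

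**Figure D2:**
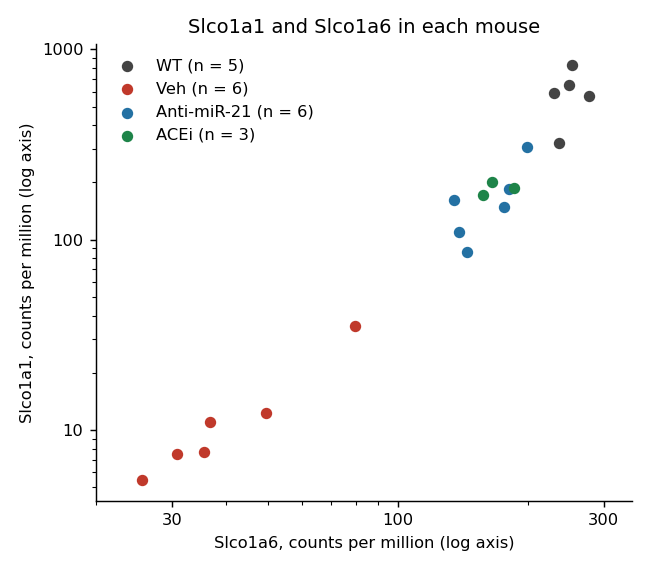
Slco1a1 against Slco1a6 in CPM on log axes, 1 point per mouse, for WT (n = 5), Veh (n = 6), Anti-miR-21 (n = 6) and ACEi (n = 3). Veh mice lie at the lower left, WT mice at the upper right and the treated mice between them; Veh mouse 4, at 35.1 and 79.6 CPM, is the Veh point nearest to the treated mice.

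Slco1a4, a carrier best known from liver and the blood-brain barrier, was low in every kidney. It ranged from 1.23 to 3.15 CPM in WT, from 1.11 to 2.12 in Veh, from 0.996 to 1.396 in Anti-miR-21 and from 1.11 to 1.80 in ACEi. All groups overlapped. The log2 fold change of Veh against WT was -0.34 (SE 0.24), and with library totals alone it was 0.24. Values against Veh were -0.38 (SE 0.23, edgeR adjusted p = 0.172) for Anti-miR-21 and -0.12 (SE 0.29, edgeR adjusted p = 0.777) for ACEi. With library totals alone the former was -0.73, with an edgeR adjusted p of 0.0137. Slco1a4 was lower in Anti-miR-21 than in WT (log2 fold change -0.72, SE 0.25, edgeR adjusted p = 0.0233). Without WT mouse 3 or mouse 4 this value was -0.62 or -0.50, with edgeR adjusted p of 0.0658 and 0.104, and on flow cell A alone it was -0.49 with 0.200. ACEi stood at -0.45 against WT (SE 0.30, edgeR adjusted p = 0.222). Of its stretches of 100 bases, 0.640% also occur in another gene, mostly Slco1a5 and Slco1a1, so that reads could have been shared.

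Slco3a1, a widely expressed carrier of prostaglandins and thyroid hormone, was the most even of the lower genes in Veh. WT mice held 306, 222, 301, 280 and 262 CPM. In Veh mice 1 to 6 the level was 98.9, 109, 96.4, 127, 107 and 103 CPM. The Veh mean was 39.0% of the WT mean, without overlap, and the log2 fold change was -1.36 (SE 0.11). Anti-miR-21 mice held 152, 121, 149, 172, 155 and 202.1 CPM and ACEi mice 159, 170 and 154 CPM. Only Anti-miR-21 mouse 2 lay below the highest Veh mouse. Slco3a1 rose against Veh by a log2 fold change of 0.57 (SE 0.10, edgeR adjusted p = 8.63e-05) in Anti-miR-21 and by 0.59 (SE 0.12, edgeR adjusted p = 0.000831) in ACEi. Against WT it was lower in both groups, with log2 fold changes of -0.79 (SE 0.11, edgeR adjusted p = 7.03e-06) and -0.77 (SE 0.13, edgeR adjusted p = 0.000101).

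Slco2a1, the prostaglandin transporter, was higher in Veh than in WT and lower again under both treatments. Its level was 34.7, 44.3, 36.2, 27.7 and 30.2 CPM in WT mice. Veh mice held 89.2, 74.7, 101, 64.5, 83.7 and 84.2 CPM, all above WT (log2 fold change 1.26, SE 0.12). The Veh mean was 240% of the WT mean. Anti-miR-21 mice held 54.4, 63.1, 58.8, 55.04, 50.04 and 46.4 CPM, and ACEi mice 58.3, 53.4 and 60.2 CPM. Each treated mouse lay between the WT and the Veh mice. Slco2a1 fell against Veh by 0.60 on the log2 scale (SE 0.11, edgeR adjusted p = 9.32e-05) in Anti-miR-21 and by 0.53 (SE 0.14, edgeR adjusted p = 0.00423) in ACEi. On the deposited FPKM, limma gave -0.45 for ACEi against Veh with an adjusted p of 0.153. Both groups stayed above WT, by 0.66 (SE 0.12, edgeR adjusted p = 0.000157) and 0.73 (SE 0.14, edgeR adjusted p = 0.000236).

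Slco2b1, a carrier of steroid sulfates, was higher in Veh than in WT, and its difference between each treated group and Veh did not pass the test. WT mice held 31.4, 36.5, 24.6, 24.0 and 15.6 CPM and Veh mice 34.7, 41.9, 57.7, 49.3, 46.9 and 55.6 CPM. Veh mouse 1 lay below WT mouse 2, and the log2 fold change was 0.85 (SE 0.18). Anti-miR-21 mice ranged from 29.4 to 52.1 CPM and ACEi mice from 41.2 to 51.2 CPM. Differences from Veh were -0.26 (SE 0.17, edgeR adjusted p = 0.192) for Anti-miR-21 and -0.05 (SE 0.20, edgeR adjusted p = 0.867) for ACEi. With library totals alone the Anti-miR-21 value was -0.58, with an edgeR adjusted p of 0.00736, and limma on log2(FPKM + 1) gave -0.55 with an adjusted p of 0.00823. Slco2b1 was above WT in Anti-miR-21 (0.60, SE 0.18, edgeR adjusted p = 0.0108) and in ACEi (0.80, SE 0.21, edgeR adjusted p = 0.00364). Among mice of flow cell A the former was 0.39, with an edgeR adjusted p of 0.140. The antisense gene Gm15635 holds 4.25% of the 100-base stretches of Slco2b1, and without strand information their reads cannot be told apart.

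Slco2a1 and Slco2b1 are known from endothelium and macrophages as well as epithelium. Summed over 8 endothelial markers, CPM was 311 ± 96.1 in WT, 376 ± 33.6 in Veh, 400 ± 30.3 in Anti-miR-21 and 386 ± 20.7 in ACEi (SD). The sum over 8 macrophage markers was 153 ± 7.37, 1036 ± 89.1, 469 ± 87.2 and 547 ± 47.8 CPM in the same order. By group means, the macrophage sum, Slco2a1 and Slco2b1 were all lowest in WT and highest in Veh. So were the sums over 5 fibroblast markers (261 CPM in WT, 2718 in Veh) and 5 T cell markers (5.06 and 17.9), so this order is not particular to macrophages. The part of the macrophage and endothelial content in the Slco2a1 and Slco2b1 values was not tested.

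Slco4a1, a thyroid hormone carrier, was also higher in Veh. WT mice held 11.8, 18.8, 22.8, 34.2 and 21.1 CPM. Veh mice held 46.9, 50.7, 45.4, 41.1, 38.2 and 43.9 CPM, all above WT, with a log2 fold change of 1.03 (SE 0.23). Anti-miR-21 mice held 44.4, 24.7, 29.97, 17.8, 23.5 and 20.4 CPM, and ACEi mice 33.0, 22.2 and 20.99 CPM. Anti-miR-21 mouse 1 lay within the Veh range and the other treated mice below it. Slco4a1 fell against Veh by 0.73 on the log2 scale (SE 0.21, edgeR adjusted p = 0.00604) in Anti-miR-21 and by 0.80 (SE 0.27, edgeR adjusted p = 0.0218) in ACEi. Without ACEi mouse 2 or mouse 3 the latter was -0.71 or -0.68, with adjusted p of 0.105 and 0.106. Differences from WT were 0.30 (SE 0.23, edgeR adjusted p = 0.298) and 0.22 (SE 0.27, edgeR adjusted p = 0.525). Summed CPM of 6 tubule injury markers was 620 in WT, 12788 in Veh, 5926 in Anti-miR-21 and 7203 in ACEi, and its part in the Slco4a1 values was not tested.

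Slco4c1, the carrier of the basolateral membrane of the proximal tubule, was low and split the WT mice. WT mice 2 and 5 held 11.1 and 13.5 CPM, and WT mice 1, 3 and 4 held 3.25, 2.03 and 2.08 CPM. Veh mice ranged from 2.18 to 4.12 CPM, Anti-miR-21 mice from 2.75 to 5.15 CPM and ACEi mice from 1.33 to 1.57 CPM. The log2 fold change of Veh against WT was -1.14 (SE 0.39). It was -0.85 without WT mouse 2 and -0.67 without WT mouse 5, and -0.56 with library totals alone. Against Veh, Anti-miR-21 stood at 0.32 (SE 0.38, edgeR adjusted p = 0.474), and at -0.01 with library totals alone. ACEi stood at -1.003 (SE 0.50, edgeR adjusted p = 0.117), although its 3 mice lay below every Veh mouse. It was called with library totals alone (-1.28, edgeR adjusted p = 0.0447) and when only these groups were fitted (-1.01, edgeR adjusted p = 0.00529). Anti-miR-21 differed from WT by -0.82 (SE 0.39, edgeR adjusted p = 0.0958), and by -1.04 without WT mouse 3 or mouse 4 (edgeR adjusted p = 0.0275 and 0.0272). ACEi was lower than WT (log2 fold change -2.14, SE 0.53, edgeR adjusted p = 0.00236), a value that limma on log2(FPKM + 1) gave as -0.17 with an adjusted p of 0.115. Slco4c1 FPKM was 0 to 0.379, listed at 0 in 4 treated mice, whereas CPM per kilobase of exon averaged 1.30 in WT against an FPKM of 0.148. The FPKM and the counts rest on different gene models, and the levels of Slco4c1 are uncertain on both.

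**Figure D3:**
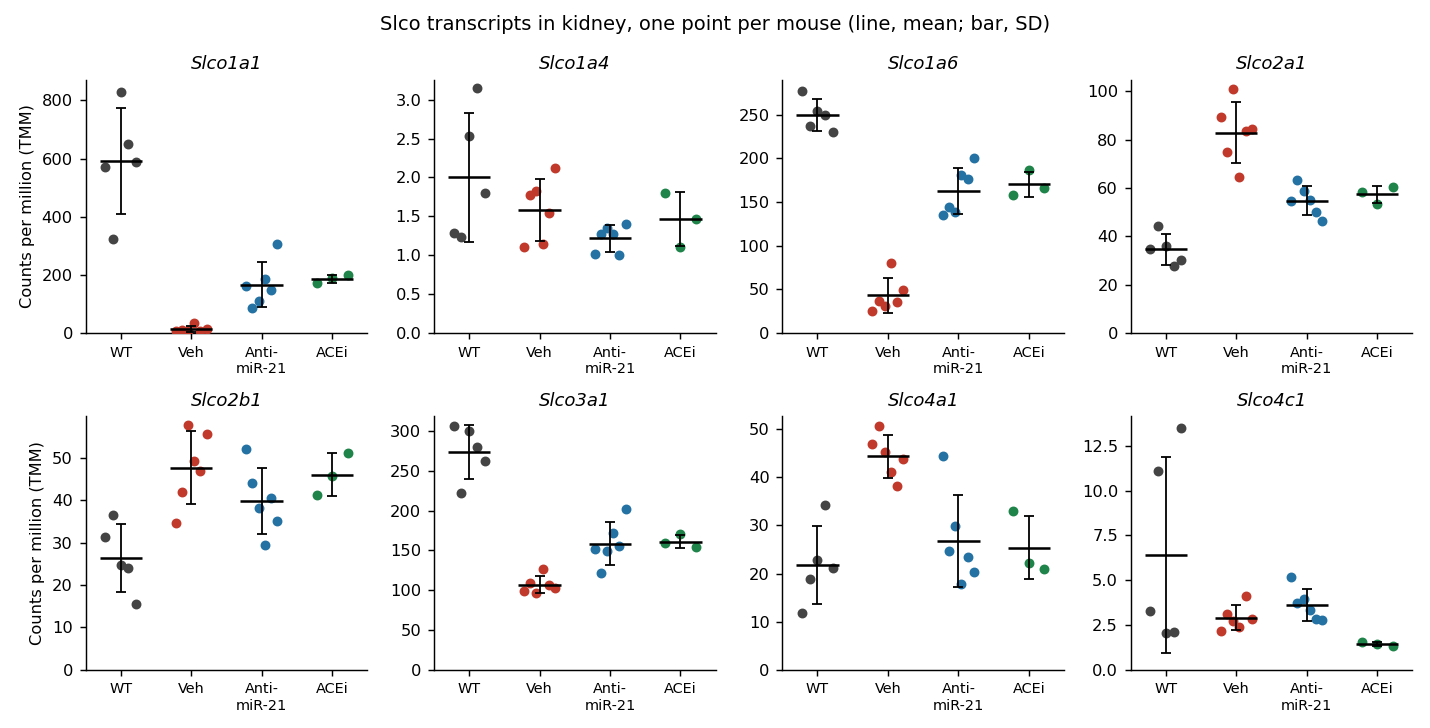
Level of each of the 8 Slco genes in CPM (TMM), 1 point per mouse, by group (WT n = 5, Veh n = 6, Anti-miR-21 n = 6, ACEi n = 3), with the mean as a line and the SD as a bar; each panel starts at 0 and has its own scale. Slco1a1, Slco1a6 and Slco3a1 are lowest in Veh, Slco2a1 and Slco4a1 highest in Veh, and the WT points of Slco4c1 fall apart, 2 near 11 to 13.5 and 3 near 2 to 3.25.

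In counts, 3 of the 8 genes were called higher and 4 lower in Veh than in WT, where 73.0% of all 17622 genes were called, 39.0% as higher and 34.0% as lower. This is the contrast in which Slco1a1 was noticed, and nothing is read from the count. The log2 fold changes of the 8 genes had both signs and ran from -5.50 to 1.26. Their median was -0.74, with Slco1a1 included, beside 0.07 over all genes. It falls between the values of the low genes Slco4c1 and Slco1a4, and nothing is read from it either. Slco1a1 is left out of the counts against Veh and WT that follow, since its values in them are a description. Of the other 7 genes, 2 were called higher (Slco1a6, Slco3a1) and 2 lower (Slco2a1, Slco4a1) in Anti-miR-21 against Veh, where 59.2% of all genes were called, 28.8% as higher and 30.5% as lower. The share of these members called, 57.1%, was near the background. In ACEi against Veh, 2 were called higher and 2 lower, where 40.1% of all genes were called, 21.0% as higher and 19.1% as lower. These comparisons share the Veh mice.

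CPM did not overlap between Veh and WT for 5 of the 8 genes, as for 54.9% of all genes. With Slco1a1 included, it did not overlap with Veh for 3 genes in Anti-miR-21, as for 36.4% of all genes, and for 6 in ACEi, as for 38.6%, where the group is smaller. Against WT, Anti-miR-21 was called higher for 2 and lower for 3 of the 7 genes other than Slco1a1, where 43.7% of all genes were called, 23.9% as higher and 19.8% as lower. ACEi was called higher than WT for 2 and lower for 2 of them, where 47.7% were called, 25.2% as higher and 22.5% as lower. With Slco1a1 included, CPM did not overlap with WT for 4 members in Anti-miR-21, as for 23.8% of all genes, and for 6 in ACEi, as for 46.1%. Slco4a1 was the member called in neither comparison with WT.

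**Figure D4:**
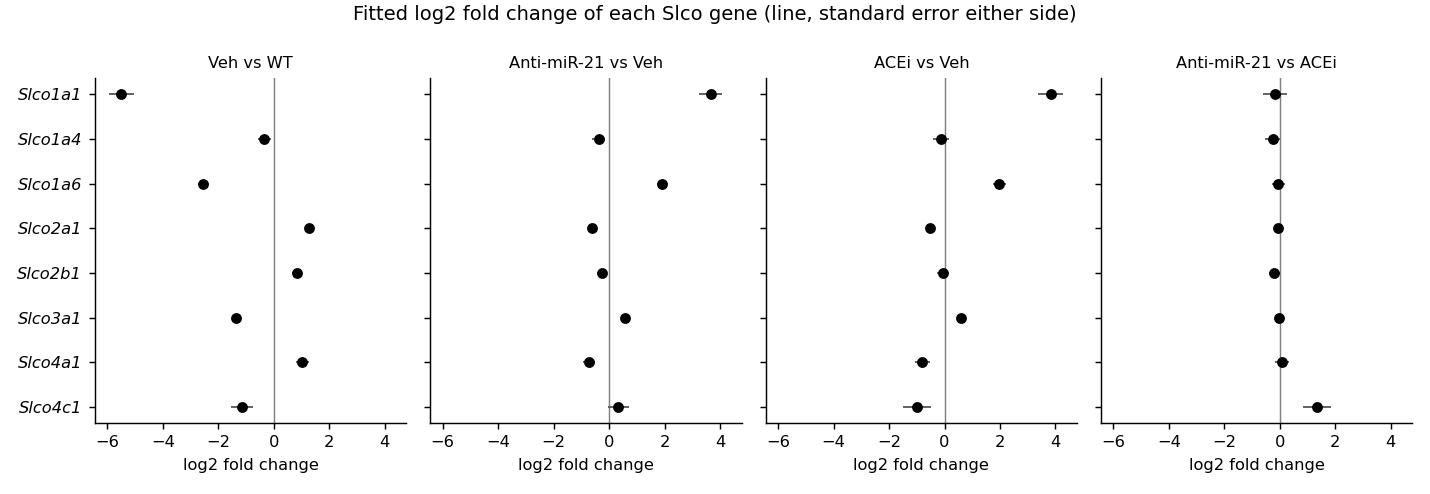
Fitted log2 fold change of each Slco gene (point) with its standard error (line) in 4 comparisons, on 1 common axis, from edgeR over 20 mice. Slco1a1 stands farthest from 0 in the first 3 panels, at -5.50, 3.66 and 3.83, and in the panel of Anti-miR-21 vs ACEi only Slco4c1, at 1.33, lies clear of 0.

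The 2 treatments were then set against each other, a difference that the choice of Slco1a1 did not use. Most Anti-miR-21 mice were on flow cell A and most ACEi mice on flow cell B. With flow cell as a term the log2 differences were 0.0542 for Slco1a1 and 0.0833 for Slco1a6, neither called. No member was called by edgeR, DESeq2 or limma in the fits over all groups, where edgeR called 0.584% of all genes (0.363% higher and 0.221% lower), and 1 of 8 members had an unadjusted edgeR p under 0.05, as did 14.5% of all genes. Slco1a1 differed by -0.17 (95% interval -1.09 to 0.75, edgeR adjusted p = 0.893), so that the data of 6 and 3 mice do not tell apart differences within this interval. The intervals were narrower for Slco1a6 (-0.55 to 0.43), Slco2a1 (-0.35 to 0.21) and Slco3a1 (-0.28 to 0.24). For Slco1a4, Slco2b1 and Slco4a1 they ran from -0.86 to 0.33, from -0.63 to 0.21 and from -0.47 to 0.62. Slco4c1 was higher in all 6 Anti-miR-21 mice than in all 3 ACEi mice, which 8.99% of all genes matched by not overlapping. Its log2 fold change was 1.33 (SE 0.50, unadjusted p = 0.0159 and edgeR adjusted p = 0.236), and it was called when only these 9 mice were fitted (1.32, edgeR adjusted p = 0.0261).

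Of the 7 Slco genes not described above, 3 passed the filter, all at or below 1.58 CPM in every mouse. Slco5a1, whose substrates are poorly known, was at 0 to 0.210 CPM in WT and 0.534 to 1.58 in Veh. It fell against Veh in Anti-miR-21 by 1.37 on the log2 scale (SE 0.43, edgeR adjusted p = 0.00968), and ACEi stood at -1.13 (SE 0.54, edgeR adjusted p = 0.101). Slco1a5 was at 0 to 0.0422 CPM in WT and 0.112 to 0.330 in Veh, and Slco1b2, the liver carrier, stayed at or below 0.545 CPM. Slco1a5 and Slco1b2 rest on 0 to 14 counts per mouse, and Slco5a1 on 18 to 57 counts in Veh and 7 to 21 in the treated mice.

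Genes whose levels followed each member most closely over the 20 mice were ranked by Pearson r of log2 CPM among 15327 protein-coding genes. For Slco1a1 they were Cd36 (r = 0.993), a fatty acid receptor, C1qtnf3 (0.992) and Tmco3 (0.991). For Slco1a6 they were 4931406C07Rik (0.996), Pbld2 (0.995) and the acyl-CoA ligase gene Acsm2 (0.994). Slco2a1 was followed by Pacs1 (0.982), Arf2 (0.981) and the heparan sulfatase gene Sulf1 (0.976), and Slco3a1 by Dhdds (0.984), Lipo3 (0.982) and Gorasp1 (0.979). For Slco2b1 the leading genes were Slc43a3, Gabra3 and Gria4 (0.937, 0.936 and 0.933), and for Slco4a1 Ptpn14, Utrn and Nipal1 (0.943, 0.935 and 0.930). The low genes had weaker matches, Slco1a4 with Dusp7 (0.765) and Fbf1 (0.737) and Slco4c1 with Impa2 (0.782), Guf1 (0.778) and Akap8l (0.773). Group differences enter all these values, and they are a description.

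Genes of the wider pathway were counted in lists, and in each list the genes at both ends of the Veh vs WT order were followed. Since that order and the comparisons with Veh use the same Veh mice, the values of these genes against Veh are not independent of how they were picked. In all the lists that follow they are a description. Of all genes, 39.0% were called higher and 34.0% lower in Veh vs WT. Against Veh, 28.8% were called higher and 30.5% lower in Anti-miR-21, and 21.0% higher and 19.1% lower in ACEi. Male-biased genes of mouse kidney were all lower in Veh, 8 of 8, with a median log2 fold change of -3.42 against 0.07 over all genes. At the ends stood Slc7a13, an amino acid carrier of the late proximal tubule, at -4.59 and Kap, the androgen-regulated kidney protein, at -4.15, with Cyp2j13 at -2.44 and Cyp2e1, a cytochrome P450, at -3.24. All 8 rose against Veh in Anti-miR-21 (median 2.56) and in ACEi (median 2.47). Slc7a13 rose by 3.76 and 2.82 and Kap by 3.31 and 3.10. Cyp2j13 rose by 1.66 and 1.53 and Cyp2e1 by 2.64 and 2.41. Many of these genes are expressed in the proximal tubule, whose marker sum was 17.6% of WT in Veh, and the part of tubule content in these values was not tested.

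Of 5 female-biased genes, 3 were higher in Veh and 2 lower, beside 39.0% and 34.0% of all genes. Prlr, the prolactin receptor, stood at 1.77 and Cyp4a14, a fatty acid hydroxylase, at 1.54, against -4.05 for Slc22a19 and -3.01 for Akr1c18. In Anti-miR-21, 3 rose against Veh (Slc22a19 3.24, Akr1c18 1.92 and the amino acid carrier Slc7a12 0.71), beside 28.8% of all genes. In ACEi, Slc22a19 (2.70) and Akr1c18 (2.74) rose. Prlr and Cyp4a14 stood at 0.62 and 0.86 in Anti-miR-21 and at -0.45 and -0.51 in ACEi, none called.

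Among the PDZ adaptors that hold brush border carriers in place, 3 of 4 were lower in Veh, where 34.0% of all genes were. Pdzk1, the adaptor known to bind Slco1a1, stood at -2.33 and Slc9a3r1 at -1.37. Pdzk1ip1 stood at -0.89 and Slc9a3r2 at 0.07. Pdzk1 rose by 1.71 in Anti-miR-21 and by 1.45 in ACEi, and Slc9a3r1 by 0.92 and 0.69. Pdzk1ip1 rose by 0.76 and 0.55, while Slc9a3r2 rose by 0.25 in Anti-miR-21 and stood at 0.05 in ACEi.

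The 14 efflux transporters, which carry organic anions out of the cell, divided into 5 higher and 7 lower in Veh (median -0.30), where 39.0% and 34.0% of all genes were called. Abcc3, a basolateral export pump, stood at 3.20 and Abcc4 at 1.12, against -2.88 for Slc17a3 and -2.24 for Slc17a1, apical anion carriers. Against Veh, 6 rose and 4 fell in Anti-miR-21 (28.8% and 30.5% of all genes), and 6 rose and 3 fell in ACEi (21.0% and 19.1%). Abcc3 fell by 1.83 and 1.25. Slc17a3 rose by 2.19 and 2.01, and Slc17a1 by 1.75 and 1.49. Abcc4 fell by 0.61 in Anti-miR-21 and stood at -0.41 in ACEi (edgeR adjusted p = 0.0566).

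Slco2a1 and Slco3a1 carry prostaglandins. Of 17 genes of prostaglandin synthesis, breakdown and receptors, 10 were higher in Veh and 4 lower, beside 39.0% and 34.0% of all genes. The median of the list was 0.43. The receptor gene Ptger4 stood at 2.52 and Ptgs2, the inducible cyclooxygenase, at 2.41, against -1.31 for Ptgfr and -1.19 for Ptger3. Hpgd, which breaks prostaglandins down after uptake, stood at 0.46. Against Veh, 5 of the 17 rose and 9 fell in Anti-miR-21, beside 28.8% and 30.5% of all genes, and 2 rose and 4 fell in ACEi, beside 21.0% and 19.1%. Ptger4 fell by 0.73 in Anti-miR-21 and stood at -0.38 in ACEi (edgeR adjusted p = 0.137). Ptgs2 fell by 0.999 in Anti-miR-21 and stood at -0.63 in ACEi (edgeR adjusted p = 0.231). Ptgfr rose by 0.98 and 0.69. Ptger3 rose by 0.75 in Anti-miR-21 and stood at 0.08 in ACEi.

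For thyroid hormone handling, 2 of 9 genes were higher in Veh and 7 lower, against 39.0% and 34.0% of all genes. The higher pair were the deiodinases Dio2, which activates the hormone, and Dio3, which inactivates it. Dio2 was at 0 to 0.327 CPM in WT and 7.06 to 55.4 CPM in Veh, and Dio3 at 0.0839 to 0.695 and 3.75 to 8.43 CPM. Their fitted values of 7.40 and 4.29 rest on WT levels of a few counts. The receptor Thrb stood at -1.54 and the hormone target Klf9 at -1.53. Against Veh, 6 genes rose and 2 fell in Anti-miR-21 (28.8% and 30.5% of all genes), and the counts were the same in ACEi (21.0% and 19.1%). Dio2 fell by 6.11 and 4.58 and Dio3 by 1.48 and 1.66. Thrb rose by 0.90 and 0.67 and Klf9 by 0.90 and 0.84.

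Of 12 nuclear receptors and transcription factors of transporter genes, 3 were higher in Veh and 8 lower (median -1.07), compared with 39.0% and 34.0% of all genes. Ahr, the aryl hydrocarbon receptor, stood at 1.64 and Nr1i2, the pregnane X receptor, at 0.64, against -1.92 for Nr1h4, the bile acid receptor, and -1.75 for Hnf4a, a tubule identity factor. In each treated group 6 rose and 2 fell against Veh, where 28.8% and 30.5% of all genes did so in Anti-miR-21 and 21.0% and 19.1% in ACEi. Ahr fell by 1.37 and 1.16, Nr1h4 rose by 1.29 and 1.23 and Hnf4a by 1.35 and 1.22. Nr1i2 stood at -0.18 and 0.11, not called.

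**Figure D5:**
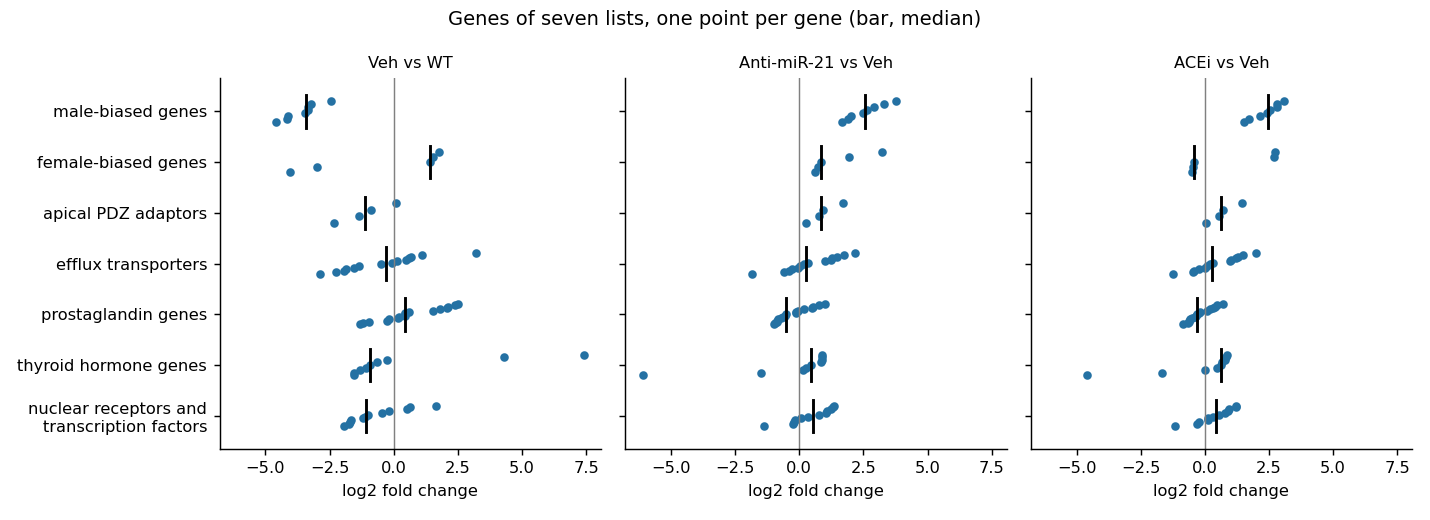
Log2 fold change of the genes of 7 lists in Veh against WT and in each treated group against Veh, 1 point per gene that passed the filter and a bar at each list's median, on 1 common axis. The male-biased genes all lie left of 0 in the first panel (median -3.42) and right of 0 in the other two (medians 2.56 and 2.47), and the point farthest from 0 is Dio2, at 7.40, -6.11 and -4.58.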

How the data were processed

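Kidney RNA of 20 mice in 4 groups was sequenced as paired ends. The authors aligned reads with the OmicSoft aligner to GRCm38 and deposited estimated counts per Ensembl gene (28.0% of values not whole) and FPKM values on partly other gene models. Strand handling is not given in the sources used here. The FPKM table holds 3 columns that match no sample, and these were not used.

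Counts were rounded, scaled by TMM, filtered with filterByExpr and fitted over all 4 groups by quasi-likelihood in edgeR 4.0.16 (R 4.3.3), with Benjamini-Hochberg adjustment over 17622 genes and a threshold of 0.05. Each sample is labelled as a separate mouse, so p-values reflect the spread between mice. Alternatives were limma 3.58.1 on log2(FPKM + 1) and log2(FPKM + 0.1), DESeq2 1.42.0, other scalings and filters, flow cell terms, fits of 2 groups and leaving out each mouse. The code was tested on simulated data.

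The members and lists were chosen with earlier results of these data known. Genes named are the 8 members, the 3 most like genes of each (1 of those for Slco1a4 is not reported here), and 2 genes from each end of a list in Veh vs WT. Hpgd and Slc7a12 were named after their values were seen. Marker sums add CPM over a list. Sequences are from RefSeq (GRCm38.p6), with 7 of 8 members matched, and gene spans from GENCODE. Total counts of 28474301 to 29479629 per mouse set the counting precision.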

Additional observations from a re-analysis of the deposited data

Results flagged for a closer look

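In 78 groups of 5 or 6 mice tested for a mouse standing apart (a gap to its nearest neighbour large against the range of the group), 1 was past the critical value, and chance alone gives about 1 in 20. It was Slco1b2, the liver carrier, at 0.282 CPM in Veh mouse 6, with a gap of 0.789 of the group's range of log2 CPM. That level rests on 10 counts, and the other Veh mice held 0 or 1. None of the 24 groups of the 8 described genes was past it.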

How the results depend on the processing

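The number of members called, Slco1a1 included, was 6 to 7 for Veh vs WT, 5 to 5 for Anti-miR-21 vs Veh, 4 to 5 for ACEi vs Veh, 0 to 0 for Anti-miR-21 vs ACEi, 6 to 6 for Anti-miR-21 vs WT and 5 to 5 for ACEi vs WT when 1 mouse was left out. In the same order, the main fit called 73.0%, 59.2%, 40.1%, 0.584%, 43.7% and 47.7% of all genes. Nothing about the family is read from these counts or from the member counts that follow. Among the other alternatives, 3 counts moved by more than 1.5 times: 1 member (Slco4c1) was called for Anti-miR-21 vs ACEi when only those groups were fitted, and with limma on log2(FPKM + 1) 3 were called for Anti-miR-21 vs WT (without Slco1a4, Slco1a6 and Slco2a1) and 3 for ACEi vs WT (without Slco2a1 and Slco4c1). By CPM per kilobase of exon, 1 of 8 genes kept its FPKM rank in all 4 groups. Directions turned only in values that had not passed the test. With library totals alone Slco1a4 in Veh vs WT was 0.24 and Slco4c1 in Anti-miR-21 vs Veh -0.00606, against 0.0917 and -0.0210 with limma on log2(FPKM + 1) and 0.26 and -0.16 on log2(FPKM + 0.1). For Anti-miR-21 vs ACEi, a flow cell term gave 0.0542 for Slco1a1 and 0.0833 for Slco1a6, and limma gave -0.0212, -0.0275 and -0.0212 for Slco4a1 with a pseudocount of 1, of 0.1 and with an FPKM minimum of 1. With 1 mouse left out, ACEi vs Veh ran from -0.29 to 0.0527 for Slco1a4 and from -0.13 to 0.0394 for Slco2b1, Anti-miR-21 vs ACEi from -0.13 to 0.00792 for Slco1a6, from -0.11 to 0.0427 for Slco3a1 and from -0.13 to 0.32 for Slco4a1, and ACEi vs WT from -0.00473 to 0.44 for Slco4a1. The cause was not tested. Of all genes, 103 were called for Anti-miR-21 vs ACEi, 437 by DESeq2, 66 without a filter, 155 with at least 10 counts in every mouse and 67 by limma on log2(FPKM + 0.1). With 1 mouse left out the share was 0.117% without ACEi mouse 3 to 1.22% without Anti-miR-21 mouse 2, against 0.584%. Flow cell A alone held 1 ACEi mouse, so that fit was not run for comparisons with ACEi. No paired analysis was possible because the mouse numbers were given in accession order and pair no mice across groups. With 3 ACEi mice, small differences were not detectable.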
